A study of Mus musculus with 4 samples.

Results

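Wnt ligands, the receptors and coreceptors that bind them, the secreted agonists and antagonists that tune them, and the feedback and transcription factor genes of the pathway were followed across 4 arrays of mouse embryonic fibroblasts (MEFs). Members were taken by name from the array's gene names (Wnt, Fzd, Sfrp, Dkk and Rspo genes with a number, and Wif1, Lrp5, Lrp6, Axin2, Lef1, Tcf7, Nkd1 and Nkd2), which gave 49 of 31829 genes, read by 60 of 39429 array features. The study compared MEFs that lack the cyclin G genes with WT MEFs. The arrays were labelled G2KO (CycG2-/-), WT of the G2KO comparison (CycG2+/+), DKO (CycG1-/- CycG2-/-) and WT of the DKO comparison (CycG1+/+ CycG2+/+), with 1 Cy3-labelled array for each, and the WT arrays are called G2WT and DKO-WT here. All mice were C57BL/6J. Cells came from embryos at midgestation and grew logarithmically in DMEM with serum; the Ccng1 allele of the double knockout lacks every coding exon, and the double mutant line was bred by crossing with G2KO mice. MEFs are a mixed primary culture of connective tissue cells, and the sources used here do not give how many embryos stood behind each array. The study ascribes raised Xist in its G2KO MEFs to their female origin, so embryo sex may differ between the cultures compared. Embryo sex was not analysed here. Each knockout has 1 array, so an error between cultures could come from the 2 arrays labelled WT alone, and those differed widely (below). No test was therefore made, and every ratio is a description of the arrays compared. The main comparisons are the array labelled G2KO with G2WT, DKO with DKO-WT, and DKO-WT with G2WT.

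Wnt proteins are secreted lipid-modified ligands that bind Frizzled receptors together with the coreceptors Lrp5 and Lrp6. Binding stabilises β-catenin, which enters the nucleus and drives transcription with Tcf7, Lef1 and their relatives, while other Wnt signals act on cell polarity and movement without β-catenin. Secreted Sfrp and Wif1 proteins bind the ligands, Dkk1, Dkk2 and Dkk4 bind the coreceptors, and R-spondins strengthen the signal by sparing the receptors from degradation. In embryos these genes pattern limb, skin, bone and neural tissue, and fibroblasts of different origin express different sets of them.

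Levels are given as the processed signal over the 75th percentile of the same array, so that a level of 1 equals that percentile. They compare a feature between arrays, not genes with each other, and 4 levels given in a row without names follow the order G2KO, G2WT, DKO, DKO-WT. A feature counted as detected where Agilent's software marked it well above background. A gene with several features was read from the feature of the highest mean signal. Where a gene was detected on 1 array of a comparison and not on the other, the ratio was taken against the lowest detected signal of that array, or the gene's own signal if higher, and is given as a limit ("at least"). A gene was counted as changed past 4-fold. The error that the scanner software assigned to a member's feature had a median between 10.0% and 10.4% of the signal on the 4 arrays and covers the spot, not the culture.

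The targeted genes were read first. Ccng1 had levels of 1.97 on the array labelled G2KO, 9.43 on that labelled G2WT and 1.66 on DKO-WT, and in DKO it was not detected and lay at least 228-fold below DKO-WT. Ccng2 lay between 0.0616 and 0.104 on the 4 arrays, so its feature did not tell knockout from WT. The array labelled G2WT stood apart. There, 4 of 9 neural progenitor markers were over 4-fold higher than on the array labelled G2KO, against 2.02% of all genes. On G2WT the levels were 14.7 for En2 and 2.37 for Sox2, whereas the fibroblast markers Pdgfra and Thy1 were not detected or at 0.46. Directions of the G2KO comparison therefore rest on its labels alone. If the labels of this pair were exchanged, which was not tested, every direction between the array labelled G2KO and G2WT would turn. The WT pair would then be the array labelled G2KO and DKO-WT, and G2WT would be a knockout array. WT arrays are named by their labels throughout. The study lists En2 and Sox2 as raised and Rspo2, Sfrp2 and Dkk2 as lowered in G2KO MEFs, opposite to the direction that the labels of these files give; its methods describe dye-swapped arrays for G2KO, whereas the arrays used here carry Cy3 alone. Because the study picked these genes, and Dkk3 as lower in DKO, from its arrays, their changes are not independent evidence.

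Markers of another cell type moved with DKO. Of 12 mesothelial markers, 10 were over 4-fold higher in DKO than in DKO-WT and none lower, against 3.94% and 3.91% of all genes. The list was chosen with earlier results of these data known. Wt1, Krt18 and Upk1b are also listed by the study as raised in DKO on its arrays, so the count is not independent evidence. The summed level of the 12 markers was 148 in DKO against 0.592 to 1.71 on the other 3 arrays. Bright features weigh most in such sums, and Msln alone was at 99.8 in DKO. Wt1, Upk3b, Upk1b, Lrrn4 and Gpm6a were detected in DKO alone. Of 14 fibroblast markers, 1 was higher and 5 were lower in DKO than in DKO-WT, beside the same shares of all genes. On the array labelled G2KO, 7 were higher and none lower than on that labelled G2WT, against 3.7% and 2.02% of all genes. The fibroblast markers summed to levels between 349 on the array labelled G2WT and 604 on DKO-WT, and all 14 were detected on the 3 arrays other than G2WT, which had 12. Neural progenitor markers summed to 60.8 on the array labelled G2WT and to 9.37 to 24.1 on the others, where Ncam1 alone was at 22.3 on DKO-WT. Of the endothelial, macrophage and skeletal muscle markers, Cd14 alone was past 4-fold in either knockout comparison, and the skeletal muscle markers summed to 0.0325 or less on each array. The part of these cell types in the differences below was not tested, and in RNA from whole cultures fewer cells of a type cannot be told apart from less RNA per cell.

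Most members were detected on every array, as were most genes at large. Of the 49 genes, 30 were detected on all 4 arrays, beside 19464 of all 31829 genes. The 30 included 9 of 10 Frizzled receptors, both coreceptors and 9 of 19 ligands. Wnt3, Wnt3a, Wnt6, Fzd10, Dkk1 and Nkd1 were detected on none by the features used. A second Nkd1 feature was detected in DKO alone, at 0.00986. Wnt2, Wnt2b, Wnt8a, Wnt8b, Wnt10a, Dkk4 and Rspo4 were detected in DKO alone, but of these only Wnt10a stood well clear of the detection limit, at 0.573; the other 6 lay between 0.0084 and 0.0108 in DKO, where the lowest detected level of any gene was 0.00728. Detected members numbered 36 on the array labelled G2KO, 32 on that labelled G2WT, 40 in DKO and 34 on DKO-WT.

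**Figure D1:**
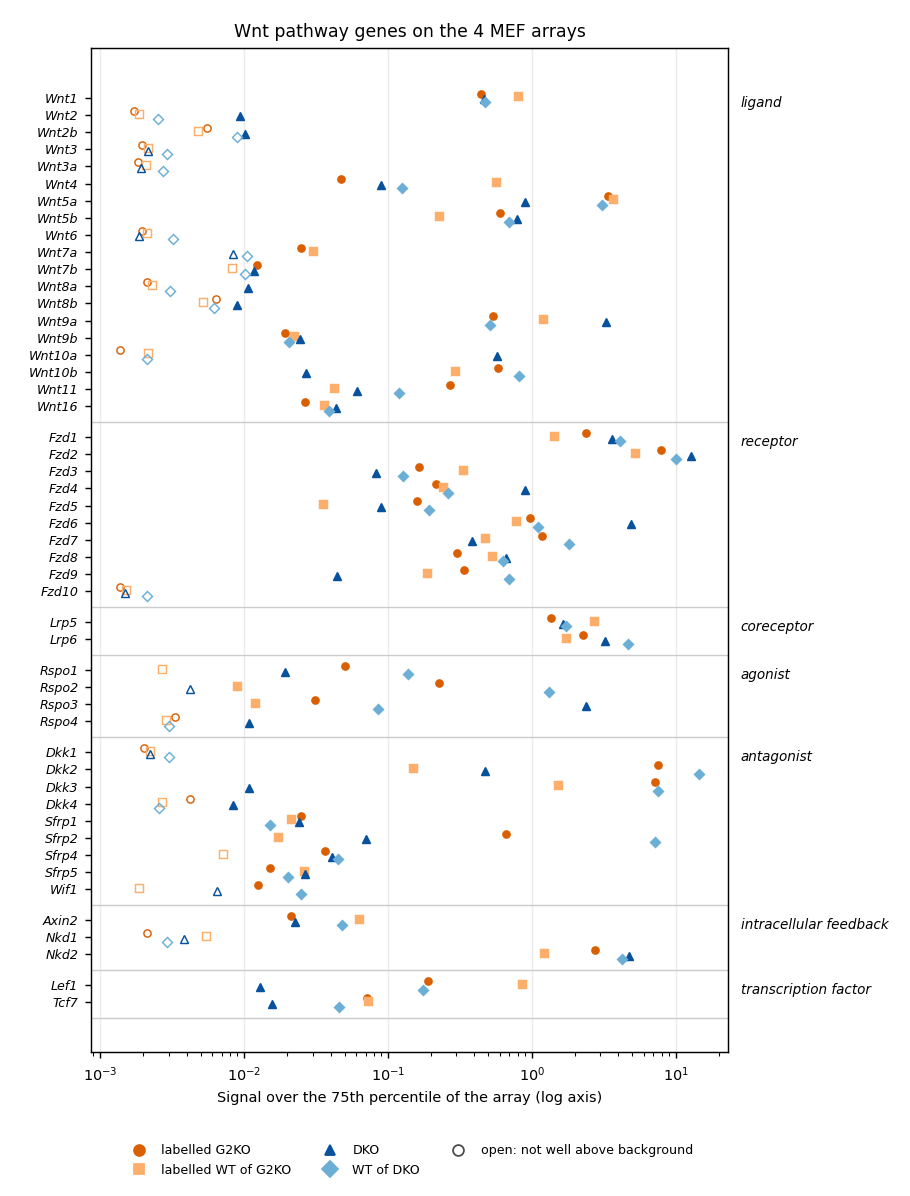
Level of each of the 49 genes on the 4 arrays (signal over the 75th percentile of the array, log axis), grouped by role; filled symbols are detected and open symbols are not well above background. Dkk3 and Sfrp2 spread over the widest ranges of the genes detected on all 4 arrays, with the DKO level of Dkk3, 0.0109, far left of the other 3, while the levels of Lrp5 and of Lrp6 stay close together.

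Members changed more often than genes at large in the 3 main comparisons. The set was chosen with earlier results of these data known. It holds Dkk2, Sfrp2, Rspo2 and Dkk3, which the study picked from its arrays, so the excess is a description and not independent evidence. On the array labelled G2KO, 10 of 36 members compared (27.8%) differed past 4-fold from G2WT, where 5.72% of all genes did; 8 were higher, against 3.7% of all genes, and 2 lower, against 2.02%, a split that exchanged labels would turn to 2 higher and 8 lower. In DKO, 13 of 42 (31.0%) differed from DKO-WT, against 7.85% of all genes, 4 of them higher and 9 lower, against 3.94% and 3.91%. The WT arrays differed from each other at 10 of 35 members (28.6%), against 7.24% of all genes, with 8 higher on DKO-WT, against 4.52%, and 2 lower, against 2.71%. As labelled, the share of members past 4-fold was thus of similar size between arrays of the same genotype and between knockout and WT. With exchanged G2KO labels, which was not tested, the WT pair would be the array labelled G2KO and DKO-WT. These differed at 2 of 36 members (5.56%), against 2.24% of all genes, so the shares would not be similar.

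DKO and the array labelled G2KO were each also set against the other WT array. Both ratios of an array share that array, so their agreement is not a repeat. DKO differed from G2WT at 13 of 42 members, against 9.62% of all genes, and 7 of 41 members compared both ways were past 4-fold in the same direction against either WT array, against 4.36% of all genes. These were Rspo3, Fzd6 and Wnt10a, higher in DKO, and Dkk3, Lef1, Fzd9 and Wnt10b, lower in DKO. Sfrp2 was past 4-fold in opposite directions. Against G2WT alone, Tcf7 (4.69-fold), Wnt5a (4.04-fold) and Fzd3 (4.01-fold) were lower in DKO past 4-fold without being so in a main comparison. The array labelled G2KO differed from DKO-WT at 2 of 36 members, Rspo2 and Sfrp2, both lower, against 2.24% of all genes. None of its 36 members was past 4-fold the same way against either WT array, against 0.557% of all genes. At so low a share, this count does not set members apart from genes at large. Each member call of the G2KO comparison thus changed with the WT array used. For the 30 members detected everywhere, log2 ratios had an SD of 0.84 for the array labelled G2KO against DKO-WT and of 1.91 for it against G2WT. The SD was 2.30 for the pair of arrays labelled WT and 2.84 for DKO against DKO-WT. G2WT counts as WT here by its label alone. With the G2KO labels exchanged, which was not tested, DKO against G2WT would compare knockout with knockout. The array labelled G2KO against DKO-WT would then compare WT with WT.

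**Figure D2:**
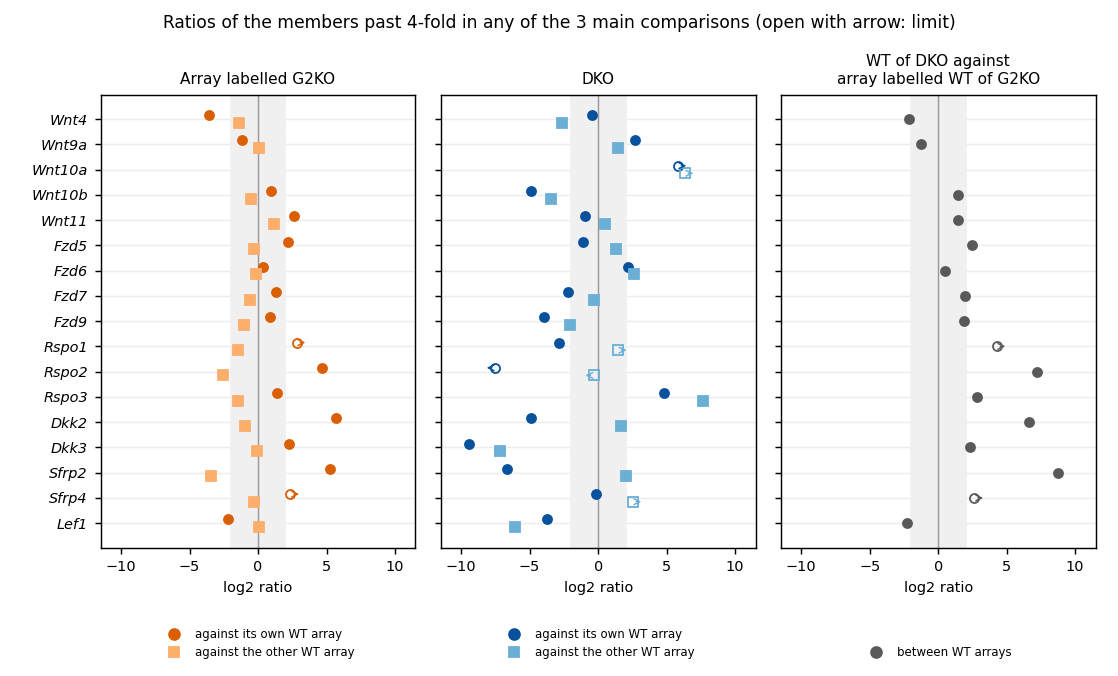
Log2 ratios of the 17 members past 4-fold in any of the 3 main comparisons, for the array labelled G2KO (left) and DKO (middle), each against its own and the other WT array, and between the WT arrays (right); open symbols with arrows are limits and the grey band spans changes within 4-fold. Squares for the array labelled G2KO lie inside the band except Rspo2 and Sfrp2, whereas Rspo3, Fzd6, Fzd9, Dkk3, Lef1, Wnt10a and Wnt10b lie outside it on the same side in DKO with either array labelled WT.

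Among the ligands, Wnt10a, Wnt9a and Wnt10b changed in DKO. Wnt10a, a ligand known from tooth, hair and skin development, was detected in DKO alone, at 0.573, which was at least 56.0-fold above DKO-WT and at least 80.1-fold above G2WT. Wnt10b, a ligand of bone and fat precursor cells, had levels of 0.579 on the array labelled G2KO, 0.295 on G2WT, 0.0271 in DKO and 0.815 on DKO-WT. DKO was thus the lowest of the 4 arrays for Wnt10b, 30.0-fold below DKO-WT and 10.9-fold below G2WT, while the other 3 arrays lay within 4-fold of each other. Wnt9a, which acts in joint formation, was at 0.538, 1.20, 3.27 and 0.509 in the same order. Its level in DKO was the highest, 6.42-fold above DKO-WT, but only 2.72-fold above G2WT.

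Wnt4 and Wnt11 changed in the G2KO comparison. Wnt4, a ligand needed for kidney and gonad formation, had levels of 0.0472 on the array labelled G2KO and 0.562 on G2WT, an 11.9-fold difference, with 0.0895 in DKO and 0.125 on DKO-WT. The array labelled G2WT was the high outlier, since Wnt4 on the array labelled G2KO was 2.65-fold below DKO-WT. Wnt11, which acts mainly without β-catenin in cell movement, was at 0.269 on the array labelled G2KO, above 0.0426 on G2WT, 0.0614 in DKO and 0.119 on DKO-WT. Its ratios were 6.32-fold against G2WT and 2.26-fold against DKO-WT, higher both ways. Wnt5a, a ligand of the β-catenin-independent branch, did not pass 4-fold in the 3 main comparisons, with levels of 3.41, 3.65, 0.904 and 3.08; DKO was lowest, 3.41-fold below DKO-WT and 4.04-fold below G2WT. The remaining ligands with a ratio lay between -0.03 (Wnt1) and 0.26 (Wnt9b) on the log2 scale in DKO against DKO-WT, where Wnt7b and Wnt8a gave limits.

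No pair of neighbouring ligand genes had both genes past 4-fold in a main comparison. Only Wnt10b and Wnt1 could have shown this, since every other pair held a gene detected on no array. Wnt10b and Wnt1 have features 21992 bp apart on chromosome 15 (Wnt10b at chr15:98602209-98602268 and Wnt1 at chr15:98624201-98624260, mm9), and Wnt1, a ligand of the midbrain, was at 0.441 on the array labelled G2KO, 0.807 on G2WT, 0.465 in DKO and 0.475 on DKO-WT. Wnt1 therefore differed by 1.02-fold between DKO and its WT where Wnt10b differed 30.0-fold. Wnt10a (chr1:74850633-74850692) and Wnt6 (chr1:74831461-74831520) are 19172 bp apart, and Wnt6 was detected on no array. Wnt9a (chr11:59146953-59147012) lies 85397 bp from Wnt3a (chr11:59061556-59061615), which was not detected either. Wnt9b, 90156 bp from the undetected Wnt3, stayed between 0.0193 and 0.0247.

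The sequences before the starts of Wnt9a and Wnt10b are shown because these ligands moved in opposite directions in DKO. Each line gives the 250 bases before the annotated start, 5′ to 3′ on the gene's strand, with CpG dinucleotides in capitals (RefSeq, GRCm38.p6). The Wnt9a stretch lies at chr11:59306680-59306929 on the plus strand and the Wnt10b stretch at chr15:98778151-98778400 on the minus strand.
Wnt9a: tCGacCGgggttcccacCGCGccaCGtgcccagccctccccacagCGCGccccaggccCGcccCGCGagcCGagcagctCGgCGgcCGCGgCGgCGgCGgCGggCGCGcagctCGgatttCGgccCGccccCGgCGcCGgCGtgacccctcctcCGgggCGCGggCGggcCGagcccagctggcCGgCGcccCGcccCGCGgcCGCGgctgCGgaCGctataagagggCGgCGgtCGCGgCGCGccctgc
Wnt10b: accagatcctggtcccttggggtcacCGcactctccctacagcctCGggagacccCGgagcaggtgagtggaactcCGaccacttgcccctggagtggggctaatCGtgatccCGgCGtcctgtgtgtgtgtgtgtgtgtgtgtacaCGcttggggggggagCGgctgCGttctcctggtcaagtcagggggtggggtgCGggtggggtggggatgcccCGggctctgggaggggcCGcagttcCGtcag
The Wnt9a stretch held 48 CpG and 84.4% G and C, and that of Wnt10b held 14 CpG and 66.8%.

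Of 9 Frizzled genes compared, 1 was past 4-fold on the array labelled G2KO, where 5.72% of all genes were. In DKO 3 were, against 7.85% of all genes. Both coreceptors stayed within 4-fold in all 3 main comparisons. Fzd6, a receptor of hair and tissue polarity, had levels of 0.979 on the array labelled G2KO, 0.782 on G2WT, 4.86 in DKO and 1.10 on DKO-WT. DKO was the highest of the 4, 4.43-fold above DKO-WT and 6.22-fold above G2WT, and the other 3 lay within 1.41-fold of each other. Fzd9, expressed in brain and bone, ran the other way, at 0.337, 0.187, 0.0442 and 0.699 in that order, with DKO 15.8-fold below DKO-WT and 4.22-fold below G2WT. Fzd4, the receptor of the retinal vessel ligand norrin, was at 0.216, 0.242, 0.896 and 0.263 and so rose 3.41-fold in DKO, under the limit.

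Fzd7 and Fzd5 passed 4-fold on 1 of their 2 features only. The brighter Fzd7 feature (chr1:59543192-59543251) was at 1.19 on the array labelled G2KO, 0.471 on G2WT, 0.385 in DKO and 1.80 on DKO-WT, so that DKO lay 4.68-fold below DKO-WT. A second feature 1825 bp away (chr1:59541367-59541426) was at 0.319, 0.212, 0.513 and 0.360 and gave 1.42-fold in the opposite direction. For Fzd5, the feature at chr1:64779479-64779538 was at 0.159, 0.0353, 0.0890 and 0.193, which put the array labelled G2KO 4.52-fold above G2WT. The other feature, 2493 bp away (chr1:64781972-64782030), was at 0.0434, 0.0494, 0.0563 and 0.0697 with a log2 ratio of -0.19.

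Fzd2 and Fzd1 had levels above 1 on every array. Fzd2 was at 7.93 on the array labelled G2KO, 5.19 on G2WT, 12.9 in DKO and 10.1 on DKO-WT, a difference of 1.27-fold between DKO and its WT and of 2.48-fold between DKO and G2WT. Its second feature was at 0.0797, 0.0472, 0.411 and 0.128, so that DKO was 3.22-fold above DKO-WT and 8.71-fold above G2WT. Fzd1 was at 2.39, 1.44, 3.59 and 4.13, and DKO differed from its WT by 1.15-fold and from G2WT by 2.50-fold. The coreceptor Lrp6 was at 2.29, 1.74, 3.25 and 4.66 and Lrp5 at 1.37, 2.70, 1.64 and 1.73. Between DKO and DKO-WT these amounted to 1.43-fold for Lrp6 and 1.05-fold for Lrp5, and against G2WT DKO was 1.87-fold higher for Lrp6 and 1.65-fold lower for Lrp5.

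The R-spondins changed in each comparison: 3 of 4 were past 4-fold in DKO, 2 of 3 on the G2KO-labelled array and 3 of 3 between the WT arrays. The shares of all genes were 7.85%, 5.72% and 7.24% in that order. Rspo3, an R-spondin of vessels and placenta, had levels of 0.0309 on the array labelled G2KO, 0.0119 on G2WT, 2.39 in DKO and 0.0857 on DKO-WT. DKO exceeded each of the other arrays, by 27.8-fold against DKO-WT and 200.1-fold against G2WT. Rspo2, an R-spondin of limb and lung, was at 0.229 on the array labelled G2KO, 0.00891 on G2WT and 1.32 on DKO-WT. It was not detected in DKO, where the limit against G2WT was only at least 1.22-fold lower. It was at least 181-fold lower in DKO than on DKO-WT and 25.7-fold higher on the array labelled G2KO than on G2WT, yet 5.77-fold below DKO-WT there, and G2WT was close to the detection limit. Rspo1, an R-spondin of the gonad, was at 0.0504 on the array labelled G2KO, 0.0194 in DKO and 0.137 on DKO-WT. It was not detected on G2WT and was at least 2.71-fold higher in DKO than there. It was 7.08-fold lower in DKO than on its WT and on the array labelled G2KO at least 7.05-fold above G2WT. With normexp background correction these log2 ratios shrank to -1.26 and 0.79, under the limit.

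In each of the 3 comparisons the member with the largest measured ratio was an antagonist. Dkk3, a Dickkopf family member whose action on Wnt signals is less direct than that of its relatives, had levels of 7.17 on the array labelled G2KO, 1.53 on G2WT, 0.0109 in DKO and 7.56 on DKO-WT. It was 693-fold lower in DKO than on DKO-WT, the 8th lowest ratio among 22884 genes, and 141-fold lower than on G2WT. The other 3 arrays lay within 4.93-fold of each other. Dkk2, which binds the coreceptors, was at 7.58, 0.149, 0.477 and 14.6. The arrays fell into a high pair, G2KO and DKO-WT, and a low pair, G2WT and DKO: Dkk2 was 50.8-fold higher on the array labelled G2KO than on G2WT, 30.5-fold lower in DKO than on DKO-WT, and 97.6-fold higher on DKO-WT than on G2WT.

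Sfrp2, a secreted Frizzled-related protein of mesenchyme, ordered the arrays as Dkk2 did. Its levels were 0.667 on the array labelled G2KO, 0.0172 on G2WT, 0.0706 in DKO and 7.24 on DKO-WT. This made it 38.7-fold higher on the array labelled G2KO than on G2WT, but 10.8-fold lower than on DKO-WT, and 103-fold lower in DKO than on DKO-WT, but 4.10-fold higher than on G2WT. The gap between the WT arrays was 420-fold, the 16th highest ratio among 22144 genes. Sfrp4, which acts on bone, was at 0.0368, 0.0409 and 0.0448 on the arrays labelled G2KO, DKO and DKO-WT and was not detected on G2WT, at least 5.14-fold lower than on the array labelled G2KO; with normexp correction this log2 ratio fell from 2.36 to 0.58. Sfrp1, Sfrp5 and Wif1 did not pass 4-fold in any of the 3 comparisons, and their levels reached 0.0267 at most.

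The stretches before Sfrp2 and Dkk2 are shown because of that shared order, from G2WT over DKO and G2KO to DKO-WT. They are written as above, for Sfrp2 from chr3:83766071-83766320 and for Dkk2 from chr3:132085042-132085291, both on the plus strand of GRCm38.p6.
Sfrp2: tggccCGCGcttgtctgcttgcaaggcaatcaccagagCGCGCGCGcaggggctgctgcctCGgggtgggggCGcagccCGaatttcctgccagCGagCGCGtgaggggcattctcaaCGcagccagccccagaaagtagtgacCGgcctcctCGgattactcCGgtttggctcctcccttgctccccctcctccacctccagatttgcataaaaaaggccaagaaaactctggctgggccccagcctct
Dkk2: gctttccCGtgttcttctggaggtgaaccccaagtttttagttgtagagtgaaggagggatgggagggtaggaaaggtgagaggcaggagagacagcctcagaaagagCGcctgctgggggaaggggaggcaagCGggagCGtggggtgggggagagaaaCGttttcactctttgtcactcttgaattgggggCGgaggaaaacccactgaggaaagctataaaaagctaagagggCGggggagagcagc
The Sfrp2 stretch held 16 CpG and 63.6% G and C, and the Dkk2 stretch held 7 CpG and 55.6%. None of the 4 stretches printed held CTTTGAT or CTTTGAA, letters that TCF and LEF proteins prefer, on either strand.

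Over the whole promoter windows, which run from 250 bases before to 50 after a start, 33 members had 40 windows in the table used. The TCF and LEF letters were present in 3 of these windows (7.5%), those of Dkk1, Wnt11 and Wnt5b, against 8.65% of all 32851 windows. Of the 17 members past 4-fold in a main comparison, 11 had a window and Wnt11 alone held the letters. Members' windows were rich in CpG: the ratio of observed to expected CpG had a median of 0.75, against 0.38 over all windows, and the G and C content had a median of 67%, against 52.7%. The absence of these letters from a window says nothing about binding elsewhere.

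Lef1 was lower in DKO than on any other array. Lef1, a transcription factor that carries β-catenin to its targets and is itself a target in many cells, had levels of 0.189 on the array labelled G2KO, 0.856 on G2WT, 0.0130 in DKO and 0.176 on DKO-WT. DKO was 13.6-fold below DKO-WT and 66.0-fold below G2WT, while the array labelled G2KO was 4.53-fold below G2WT and within 1.07-fold of DKO-WT. The Lef1 feature maps to chr3:130907851-130926012, a stretch longer than the feature itself, as a feature across a splice junction has. With normexp background correction the DKO ratio of Lef1 fell under the limit, to -1.82 on the log2 scale. Tcf7, its relative, was at 0.0720, 0.0730, 0.0156 and 0.0455, 2.92-fold lower in DKO than on DKO-WT.

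Axin2 and Nkd2, feedback inhibitors that Wnt signals induce in many tissues, did not pass 4-fold on the features used. Axin2, a widely used readout of β-catenin activity, was low throughout, at 0.0211 on the array labelled G2KO, 0.0633 on G2WT, 0.0226 in DKO and 0.0481 on DKO-WT. As labelled, the knockout arrays lay below their own WT, by 3.00-fold and 2.13-fold; exchanged G2KO labels would turn the former. A second Axin2 feature was detected in DKO alone. Nkd2 was at 2.75, 1.21, 4.72 and 4.23 on its brighter feature (chr13:73956776-73956835), a difference of 1.12-fold between DKO and DKO-WT.

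The second Nkd2 feature gave another picture. It lies 805 bp away (chr13:73957581-73957640) and was at 0.888 on the array labelled G2KO, 0.0991 on G2WT and 1.31 on DKO-WT, and it was not detected in DKO, at least 181-fold below DKO-WT. Its ratios thus differed by at least 7.66 on the log2 scale in the same comparison. This was the widest gap among the members with a ratio from each of 2 features; for Lrp6 they differed by 0.07 and for Fzd2 by 1.34. Wnt1 (-0.03 and at least 1.85), Wnt16 (0.16 and -0.72) and Axin2 (-1.09 and at least 0.04) also had features of opposite direction in DKO. Which exon or UTR each feature lies in was not analysed here.

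**Figure D3:**
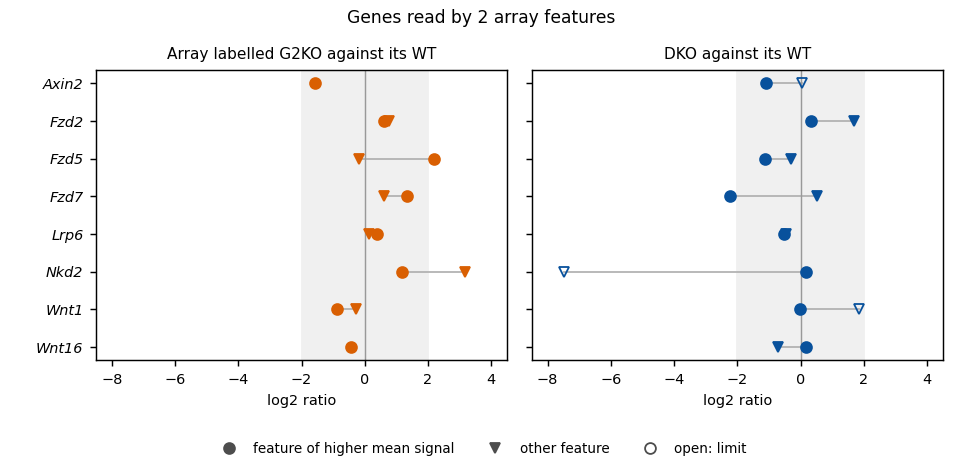
Log2 ratio from each of 2 features of the same gene, for the array labelled G2KO (left) and DKO (right) against their own WT, with circles for the brighter feature, triangles for the other, open symbols for limits, and a grey band for changes within 4-fold. The Nkd2 features in DKO stand at 0.16 and at a limit of -7.50, and those of Fzd7 at -2.23 and 0.51.

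Genes of the pathway outside the members were read as 4 lists, beside shares of all genes past 4-fold of 7.85% in DKO and 5.72% in the G2KO comparison. In the list of cell surface and secretion genes, 2 were higher and 1 lower past 4-fold of 19 compared on the array labelled G2KO, and 0 higher and 3 lower of 21 in DKO (15.8% and 14.3%). Igfbp4, a secreted binding protein that also dampens Wnt signals, was at 0.999, 1.98 and 2.53 on the arrays labelled G2KO, DKO and DKO-WT and not detected on G2WT, at least 115-fold lower. Against G2WT, the array labelled G2KO had Frzb, a secreted Wnt binder, at least 4.40-fold higher and Apcdd1, a membrane inhibitor, 5.00-fold lower. Relative to DKO-WT, that array had Igfbp4 2.53-fold lower, Frzb 1.14-fold higher and Apcdd1 1.64-fold lower. In DKO, Tpbg, an inhibitor of the β-catenin branch, was 5.70-fold lower, Lgr4, an R-spondin receptor, 4.91-fold lower, and Rnf43, a ligase that removes Frizzled receptors and that R-spondins hold in check, 4.29-fold lower. Relative to G2WT, DKO had Tpbg 1.92-fold and Rnf43 2.94-fold lower but Lgr4 2.15-fold higher, so none of these calls held there.

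Of 34 genes of the intracellular machinery between receptor and nucleus compared in each knockout, 1 was higher and 1 lower past 4-fold (5.88%), near the share of all genes. Ctnnb1, which encodes β-catenin, was at 12.3 on the array labelled G2KO, 11.9 on G2WT, 9.89 in DKO and 12.9 on DKO-WT. Apc2, a relative of the scaffold Apc, was 4.23-fold lower on the array labelled G2KO than on G2WT and 5.42-fold higher in DKO than on DKO-WT. Pygo1, a nuclear cofactor, was at least 5.12-fold higher and at least 5.85-fold lower in these comparisons. With the other WT array, 0 of 33 genes of this list passed 4-fold in DKO, against 9.62% of all genes. On the array labelled G2KO 0 of 34 did, against 2.24%. The planar polarity list had 0 of 10 past 4-fold on the array labelled G2KO. In DKO it had 2 of 9, Celsr1, a polarity cadherin, 20.5-fold higher, and Prickle1, a cytoplasmic partner, 7.19-fold lower. Relative to G2WT, Celsr1 was 9.04-fold higher in DKO and Prickle1 only 2.13-fold lower.

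Of 19 textbook target genes compared in DKO, 5 were past 4-fold, all lower, where 3.91% of all genes were lower, and 14 did not pass. The median log2 ratio of the list was -0.76, where that of all genes was 0.03, and Ccnd1, Wisp1 and Ephb3 were among those with ratios above 0. Wisp2, a secreted CCN protein, was at 6.85 on the array labelled G2KO, 1.02 on G2WT, 0.136 in DKO and 8.69 on DKO-WT, 63.8-fold lower in DKO than its WT. The homeobox genes Msx2 and Msx1 were 7.02-fold and 6.43-fold lower, the transcription factor Jun 5.83-fold and the adhesion receptor Cd44 5.76-fold. Relative to G2WT, Wisp2, Msx2 and Jun stayed past 4-fold lower in DKO, by 7.49-fold, 30.3-fold and 4.14-fold. Msx1 and Cd44 were under the limit there, 3.59-fold and 2.44-fold lower. On the array labelled G2KO, 1 of 19 was higher (Wisp2, 6.71-fold) and 2 were lower (Fst, an activin antagonist, 5.23-fold, and Msx2, 4.03-fold), with a median of -0.27 where that of all genes was -0.17. Relative to DKO-WT, 0 of 18 passed 4-fold on that array, where 2.24% of all genes did. Ccnd1, which encodes cyclin D1, was at 9.63, 37.7, 10.4 and 8.67 and did not pass the limit in either comparison. These genes answer to many other signals, and the summed level of mesothelial markers beside them in DKO was 148, most of it from Msln. The part of either was not tested.

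**Figure D4:**
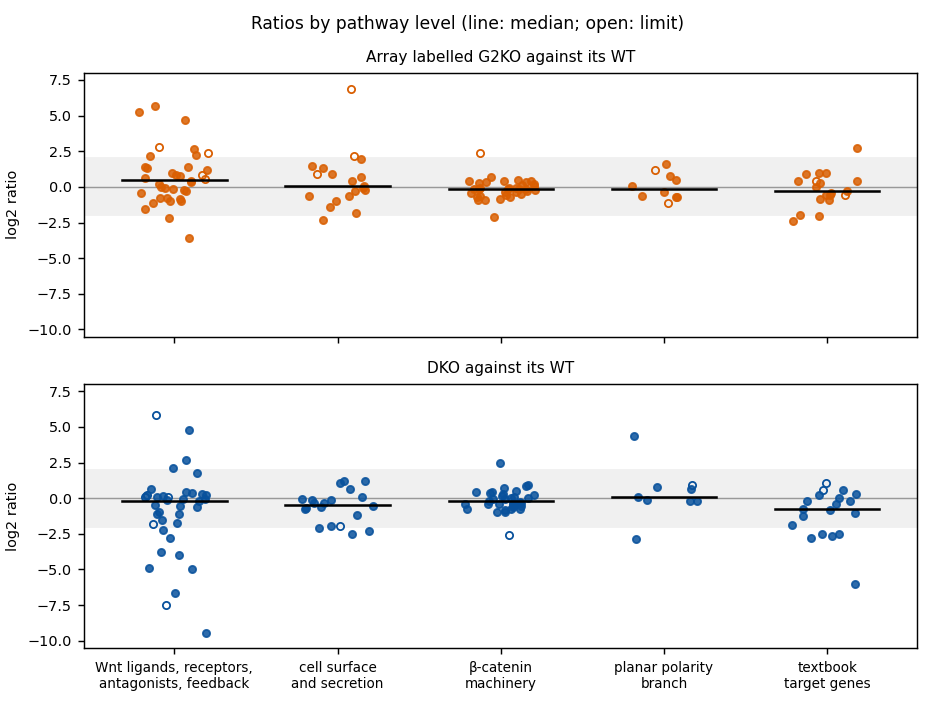
Log2 ratio of each gene with a ratio, for the members and the 4 pathway lists, on the array labelled G2KO against its WT (top) and in DKO against its WT (bottom); lines are medians, open circles are limits and the grey band spans changes within 4-fold. The members reach from -9.44 to 5.81 in DKO, whereas 32 of the 34 compared genes of the β-catenin machinery lie inside the band in each panel.

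The median log2 ratio of members was 0.49 on the array labelled G2KO, -0.17 in DKO and 0.96 between the WT arrays, against -0.17, 0.03 and -0.08 over all genes. Sizes differed more, with a median size of 0.98, 1.02 and 1.48 for members and 0.44, 0.43 and 0.46 for all genes on the log2 scale. Of the members that did not pass 4-fold, 26 had a ratio on the array labelled G2KO, between -1.59 and 1.41, and 25 in DKO, between -1.78 and 1.77. The median's sign in each knockout comparison turned when the other WT array was used, to -0.34 and 0.37.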

How the data were processed

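Total RNA of 4 MEF cultures was hybridised to single-color Agilent arrays on 1 slide. The authors obtained signal intensity per spot from Agilent Feature Extraction (10.7.3.1 in the file headers, 10.5.1.1 in the submitters' processing notes), with background corrected and no scaling across arrays; the deposited table repeats these linear values. Here, outlier spots were left out (107 to 140 per array, 0 of members), log2 intensity was centred on each array's 75th percentile (1589 to 2242 intensity units), and ratios and limits were formed in Python 3.11.15 with pandas 2.3.3. No spot was saturated, and the lowest detected signal lay between 11.4 and 19.2. Precision is limited by having 4 arrays. The calculation was tested on simulated data. Normexp correction used limma 3.58.1 in R 4.3.3.

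Members and lists were chosen with earlier results of these data known. Members past 4-fold and the 10 of highest mean signal were given on all 4 arrays, with up to 6 genes named per list. All 60 features matched RefSeq by accession with the same symbol. Features have mm9 positions from the files; promoter windows are of GRCm38.p6 and were not joined to them. Dkk3, Dkk4, Fzd2, Fzd3, Fzd6, Fzd8, Lrp5, Lrp6, Rspo2, Rspo3, Sfrp1, Sfrp4, Wnt5a, Wnt7b, Wnt8a and Wnt10a had no window in the table. G1KO MEFs were not analysed here. Alternatives were background correction, scaling, the filter on dim features, the limit, the WT array and the treatment of several features per gene.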

Additional observations from a re-analysis of the deposited data

Results flagged for a closer look

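Dkk2, Dkk3, Rspo1, Rspo2 and Sfrp2 were past 4-fold in opposite directions in the knockout comparisons as labelled. The log2 ratios on the array labelled G2KO against its WT and in DKO against its WT were 5.67 and -4.93 for Dkk2, 2.22 and -9.44 for Dkk3, and 5.28 and -6.68 for Sfrp2. For Rspo2 they were 4.68 and at most -7.50, and for Rspo1 at least 2.82 and -2.82. With 1 array for each knockout the difference was not tested. The comparisons share no array, but on the array labelled G2KO these genes lay nearer to DKO-WT than to G2WT on the log2 scale, with ratios against DKO-WT of -0.94, -0.076, -3.44, -2.53 and -1.45 for Dkk2, Dkk3, Sfrp2, Rspo2 and Rspo1. Directions of the G2KO comparison rest on its labels: with the labels of that pair exchanged, all 5 genes would be lower in both.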

How the results depend on the processing

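Quantile normalization, median scaling, no scaling, and the stricter or absent filter on dim features turned no direction among the 33 ratios past 4-fold (27 of them under the stricter filter). Unscaled intensities raised the median of all genes by 0.50 on the array labelled G2KO and by 0.25 between the WT arrays, and left 1 member lower past 4-fold in each. With normexp background correction all 33 kept their direction but 11 fell under 4-fold (Fzd5, Rspo1, Sfrp4 and Wnt11 on the array labelled G2KO, Lef1 and Rspo1 in DKO, and Fzd5, Rspo1, Rspo3, Sfrp4 and Wnt4 between the WT arrays), leaving 6 members (4 higher) on the array labelled G2KO and 5 (4 higher, 1 lower) between the WT arrays; it moved the median of all genes in DKO by 0.10. At 2-fold the counts were 17 (5 lower) on the array labelled G2KO, 19 in DKO (5 higher, 14 lower) and 22 between the WT arrays (17 higher, 5 lower); at 10-fold they were 4 (3 higher, 1 lower), 9 in DKO (2 higher, 7 lower) and 4 (4 higher, 0 lower). Against the other WT array, 2 members passed 4-fold on the array labelled G2KO (0 higher), and the log2 ratios turned to -0.94 for Dkk2, -0.076 for Dkk3, -0.28 for Fzd5, 0.10 for Lef1, -1.45 for Rspo1, -2.53 for Rspo2, -3.44 for Sfrp2 and -0.29 for Sfrp4; in DKO they turned to 1.68 for Dkk2, 1.44 for Rspo1 and 2.04 for Sfrp2. Against the mean of both WT arrays, 2 members passed 4-fold on the array labelled G2KO (1 higher, 1 lower). Taking the median over features left Fzd5 and Fzd7 under 4-fold. The causes were not tested. No paired analysis was possible because each group has 1 array.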
